A study of Homo sapiens with 5 samples.

Results

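The ZNF genes described here are the rows of the gene count table whose symbol is ZNF followed by a number, with or without 1 further letter, and whose mean over the 5 libraries was at least 10 CPM (read counts scaled to a common library size). There were 323 such genes among 494 ZNF rows and 18257 rows in all. Within the family the genes were chosen by this mean level, which is therefore a description. The family itself was taken up with earlier results of these libraries known, so its shifts are described by counts and medians without a test. Just inside the limit were ZNF775, ZNF18 and ZNF681, at means of 10.17, 10.24 and 10.27 CPM. Just outside were ZNF565, ZNF284 and ZNF784, at 9.90, 9.77 and 9.76 CPM.

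Poly(A) RNA was sequenced from HEK293, a human embryonic kidney cell line, in the strain labelled HEK293 T-Rex FLAG:DICER1 FLP-IN, so every group carries a tagged DICER1 insert. Cells were taken 18 h after transfection with DICER1 siRNA 1 or siRNA 2, with DROSHA siRNA 1 or siRNA 2, or as a mock, with 1 library for each siRNA and 1 mock library. DROSHA cuts primary microRNA transcripts in the nucleus and DICER1 cuts the resulting hairpins in the cytoplasm; per the design text, the study asked how Dicer binding affects regulation, with DROSHA knockdown and mock as controls. Whether each library had its own culture is not stated. The spread behind every p-value is that between siRNA 1 and siRNA 2 to the same gene, with 1 library for each. All comparisons come from 1 fit, which pools this spread over the DICER1 and the DROSHA pair. A gap between the DROSHA libraries therefore also enters the p-values of DICER1 against mock. For ZNF395 the SE there was 0.42, though its DICER1 libraries and the mock stood at 80.0, 83.3 and 77.4 CPM. Differences between the siRNAs and technical spread cannot be told apart in the pooled spread.

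Total counts lay between 7620206 and 8736455 reads per library, and 12234 genes were tested. DICER1 mRNA stood at 74.1 and 67.7 CPM in the DICER1 siRNA libraries, 282 and 333 CPM in the DROSHA siRNA libraries and 243 CPM in the mock. DROSHA mRNA stood at 41.2 and 41.9 CPM after DROSHA siRNA 1 and 2, 195 and 193 CPM after DICER1 siRNA and 192 CPM in the mock, so the target mRNA was at about the same level with both DROSHA siRNAs. Of the markers chosen for HEK293 cells, VIM, LIN28B, CDH2, NEFL, KRT8 and KRT18 were at 50.4 CPM or more in every library, while PAX2 and NEFM stayed under 5 CPM. The 9 matched markers of other cell types summed to between 28.3 and 35.4 CPM per library, mostly HBB and COL1A1, and PTPRC had no read in any library. In bulk RNA, fewer cells of a kind and less RNA per cell cannot be told apart.

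C2H2 zinc finger proteins bind DNA, and in some cases RNA, through repeated modules in which a pair of cysteines and a pair of histidines hold a zinc ion. Many human members also carry a KRAB box, which binds the scaffold TRIM28 (KAP1) and through it the histone methyltransferase SETDB1 and HP1 proteins, and so silences transposable elements and other loci. Large clusters of KRAB genes lie on chromosome 19. Their repeated finger coding sequence is known to hold many matches to the seed of miR-181, a microRNA family, within the open reading frame rather than in the 3′ end of the mRNA.

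The 323 genes showed these family features in the GENCODE transcript with the longest coding sequence. A finger match was found in all but 7 of them, with a median of 10 fingers, a lower and upper quartile of 7 and 14, and a highest number of 35. A stretch like the KRAB box, with at least 16 of 40 residues identical to a consensus, was found in 190 genes (58.8%). Chromosome 19 held 153 genes (47.4%), against 7.34% of all tested genes, and 83.7% of those on chromosome 19 had a KRAB-like box, against 36.5% of those elsewhere. Transcript GC content was lower than in tested genes as a whole, with medians of 43.9% and 49.4%.

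Matches to the miR-181 seed are shown because the results below are broken down by them. The mature microRNA is credited to RefSeq on GRCh38.p14, with the seed (bases 2 to 8) in capitals. The coding stretches come from GENCODE 29 transcripts of 8 genes named below for a difference between libraries, each at the first match in its coding sequence, with the reverse complement of the seed in capitals wherever it occurs.
hsa-miR-181a-5p: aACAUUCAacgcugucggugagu
ZNF33A: gagaaacacttTGAATGTaaTGAATGTgg
ZNF404: gtgataccctaTGAATGTaaTGAATGTgg
ZNF790: aagaaaacataTGAATGTaaagaatgtgg
ZNF667: gatagaccctaTGAATGTgatcagtgtgg
ZNF175: gatggatgttcTGAATGTggggggagctt
ZNF678: tttcaatgtatTGAATGTggcagaaattt
ZNF493: tcctacaaataTGAATGTggcaaatcttt
ZNF675: aaaagtgtggaTGAATGTaagttgcacaa

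The motif searched was TGAATGT on the coding strand. In all, 195 of the 323 genes (60.4%) held at least 1 match and 99 (30.7%) held 5 or more, with 1087 matches in total or 1.71 per coding kilobase. Of the 11745 tested genes with a transcript that are not ZNF rows, 12.5% held a match and 0.187% held 5 or more, at 0.0861 per coding kilobase. The matches sat in 1 reading frame: 97.5% began at the third base of a codon, and in 90.7% the last codon was a cysteine of a finger, the first cysteine in 41.6% and the second in 49.1%. ZNF33A held 18 matches, ZNF790 held 9 and ZNF404 held 8. MicroRNA levels were not measured in these libraries, and a match is a description, not a site of action.

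Levels among the ZNF genes spanned a mean of 10.2 to 678 CPM, with a median of 27.7 CPM and a lowest count of 65 reads in any library. Per kilobase of transcript, the highest was ZNF207 (BuGZ), a microtubule-binding protein that loads the checkpoint protein BUB3 on kinetochores, at 169 CPM per kilobase. Next came ZNF711, a partner of the histone demethylase PHF8, at 140 CPM per kilobase and ZNF146, a protein made almost wholly of fingers, at 137. ZNF703, an oncogene of luminal breast cancer, stood at 110 CPM per kilobase, followed by ZNF664 at 85.9, ZNF302 at 65.0, ZNF428 at 55.9 and ZNF598 at 51.2. Of these 8, only ZNF302 had a KRAB-like box. Together the 323 genes took 1.43% of all reads in each DICER1 siRNA library, 1.40% and 1.5% in DROSHA siRNA 1 and 2, and 1.42% in the mock.

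Set against the mock library by library, the ZNF genes lay above it in DROSHA siRNA 2 and close to it in the other 3 siRNA libraries. Their median log2 difference from the mock was -0.008 in DICER1 siRNA 1, -0.021 in DICER1 siRNA 2, -0.016 in DROSHA siRNA 1 and 0.104 in DROSHA siRNA 2. Over all tested genes the same medians were -0.002, 0.004, -0.004 and 0.0. In DROSHA siRNA 2, 235 of 323 genes (72.8%) were above the mock, against 52.1% of the 9677 tested genes averaging 10 CPM or more and 50% of all tested genes. The counts above the mock were 159 in DICER1 siRNA 1, 154 in DICER1 siRNA 2 and 144 in DROSHA siRNA 1, or 49.2%, 47.7% and 44.6%, against 48.5%, 50% and 49.1% of those 9677 genes and 49.6%, 50.7% and 49.0% of all tested genes. The same mock serves all 4 of these differences, and a deviation of that library and a response to siRNA cannot be told apart in them.

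**Figure D1:**
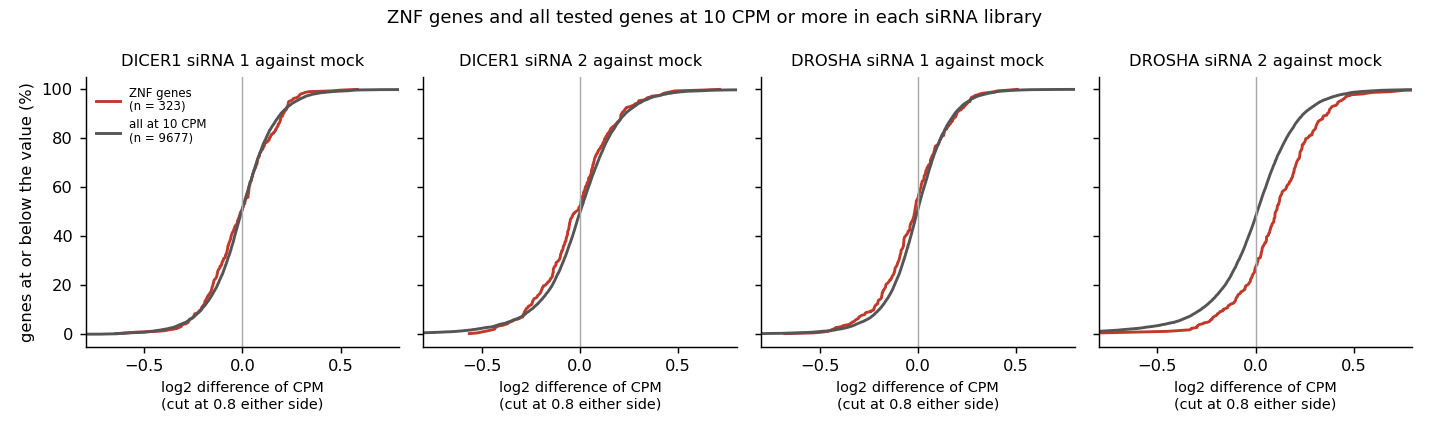
Cumulative share of genes (y axis, percent) by log2 difference of CPM from the mock (x axis) in each siRNA library, for the 323 ZNF genes (red) and all 9677 tested genes averaging 10 CPM or more (grey), with the x axis cut at 0.8 on either side. The red curve lies right of the grey one in DROSHA siRNA 2, where the ZNF median is 0.104, and close to it in the other 3 libraries.

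Between the DROSHA libraries, which leave the mock out, 233 ZNF genes (72.1%) were higher with siRNA 2 than with siRNA 1, at a median log2 difference of 0.115 and quartiles of -0.011 and 0.254. The share was 51.7% over the 9677 genes and 49.8% over all tested genes, with medians of 0.007 and -0.001. More than 1.25-fold higher with siRNA 2 were 61 ZNF genes (18.9%, against 6.08% of the 9677 genes and 8.55% of all tested genes), and more than 1.25-fold lower were 7 (2.17%, against 6.99% and 11.5%). Between the DICER1 libraries 160 genes (49.5%) were higher with siRNA 2, against 50.4% of all tested genes, at a median of -0.003. More than 1.25-fold higher there were 11 (3.41%, against 2.48% of the 9677 genes and 6.08% of all tested genes), and more than 1.25-fold lower were 10 (3.10%, against 3.07% and 6.61%). Of the 5 libraries, DROSHA siRNA 2 held the highest value of 158 ZNF genes (48.9%), against 28.1% of genes at 10 CPM or more. The difference is of 1 library against 1, so no test of it is given, and counting error alone gives a single gene a median SE of 0.133 on the log2 scale.

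The genes that differed most between the DROSHA libraries were chosen for that difference and are given as values. ZNF367, a zinc finger gene without a KRAB-like box or a miR-181 match, stood at 75.3 CPM with DROSHA siRNA 2 and 42.3 CPM with siRNA 1. Its DICER1 siRNA libraries stood at 56.5 and 61.7 CPM and the mock at 37.6 CPM. All 4 siRNA libraries of ZNF367 were above the mock, DROSHA siRNA 1 the least. ZNF678 stood at 72.9 CPM with DROSHA siRNA 2 and 43.1 CPM with siRNA 1, with 47.4 and 46.1 CPM after DICER1 siRNA and 62.3 CPM in the mock. ZNF493 had 14.4 CPM with DROSHA siRNA 2 and 8.38 CPM with siRNA 1, against 11.3 CPM in the mock. ZNF404 had 26.5 and 16.7 CPM with DROSHA siRNA 2 and 1, against 20.5 CPM in the mock. For ZNF678, ZNF493 and ZNF404 the mock lay between the DROSHA libraries, so their mean difference from it was small, at -0.11, 0.00 and 0.07 on the log2 scale. ZNF667 was at 14.7 CPM with DROSHA siRNA 2 and 8.96 CPM with siRNA 1, against 11.8 CPM in the mock, and reached 16.8 and 15.6 CPM in the DICER1 libraries.

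In the other direction, 2 genes without a KRAB-like box stood apart. ZNF395, a transcription factor, had 31.5 CPM with DROSHA siRNA 2 and 77.4 CPM with siRNA 1, and 80.0, 83.3 and 77.4 CPM in DICER1 siRNA 1, DICER1 siRNA 2 and the mock. ZNF207 had 205 CPM with DROSHA siRNA 2 and 346 CPM with siRNA 1, and 359, 353 and 351 CPM in DICER1 siRNA 1, DICER1 siRNA 2 and the mock. In both, DROSHA siRNA 2 was the only low library and the other 4 differed little. ZNF76, a relative of the promoter-binding activator ZNF143, had 42.5 CPM with DROSHA siRNA 2 and 63.4 CPM with siRNA 1, against 53.4 CPM in the mock, so here the mock lay between them. ZNF579 had 19.4 and 27.6 CPM with DROSHA siRNA 2 and 1 and 29.6 CPM in the mock, and ZNF853 had 14.3 and 19.6 CPM, with 16.7 CPM in the mock.

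**Figure D2:**
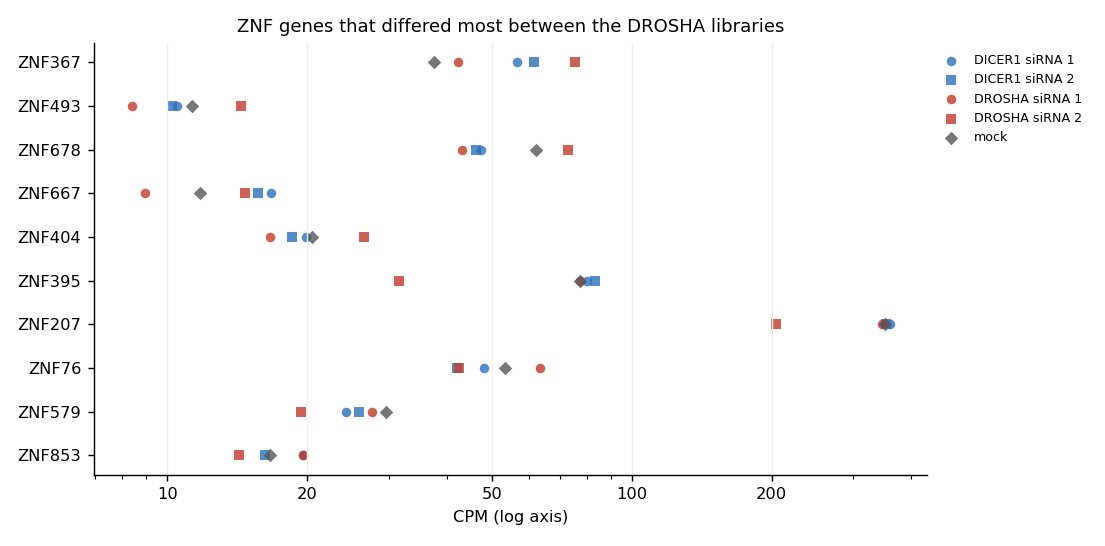
CPM (log axis) in each of the 5 libraries for the 5 ZNF genes with the largest positive and the 5 with the largest negative difference of DROSHA siRNA 2 minus siRNA 1. Circles are siRNA 1, squares siRNA 2 and the diamond the mock. ZNF395 and ZNF207 have a single low library, at 31.5 and 205 CPM.

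The difference between the DROSHA libraries went with KRAB boxes, chromosome 19, finger number, miR-181 matches and low GC content, features that overlap. The median of DROSHA siRNA 2 minus siRNA 1 was 0.183 in the 190 genes with a KRAB-like box and 0.054 in the 133 without. It was 0.166 in the 153 genes on chromosome 19, of which 127 were higher with siRNA 2, and 0.076 in the 170 genes elsewhere, of which 106 were. By finger number it was 0.046 for 0 to 4 fingers, 0.099 for 5 to 9, 0.126 for 10 to 14 and 0.186 for 15 or more. By miR-181 matches it was 0.213 in the 99 genes with 5 or more, 0.100 in the 96 with 1 to 4 and 0.034 in the 128 with none. The same medians between the DICER1 libraries were 0.008, 0.014 and -0.028. Against the mock, the 99 genes with 5 or more matches stood at -0.027, -0.028, -0.071 and 0.163 in DICER1 siRNA 1 and 2 and DROSHA siRNA 1 and 2.

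GC content moved with the same difference, in ZNF genes and in the whole table. With under 40% GC the median of DROSHA siRNA 2 minus siRNA 1 was 0.213 in 75 ZNF genes and 0.083 in all 1691 tested genes of that class, and with 55% or more it was -0.018 in 67 ZNF genes and -0.049 in all 3993 genes of that class. In each of the 5 GC classes the ZNF median was above that of all genes of the class. The ZNF and overall medians were 0.182 and 0.048 at 40 to 45% GC, 0.107 and 0.002 at 45 to 50%, and 0.073 and -0.027 at 50 to 55%. Among ZNF genes under 45% GC the median was 0.217 with 5 or more miR-181 matches, 0.115 with 1 to 4 and 0.148 with none, so the order by matches did not hold there. With 45% GC or more it was 0.124, 0.076 and 0.010, the first from 15 genes. With the trend of all genes over expression, GC content and transcript length removed, the median over the 323 genes was 0.103, and it was 0.170, 0.075 and 0.066 with 5 or more, 1 to 4 and no matches. Over the 323 genes, which share the same libraries and base composition, Spearman's rho of this difference was -0.43 with GC content and 0.39 with the number of matches, and -0.49 between GC content and matches. Outside the ZNF rows, 265 tested genes with 2 or more matches had a median of 0.075 and 10277 with none had -0.009. These genes still include other zinc finger families and were not split by GC content. Of the 22 with 5 or more matches, 10 were in the ZFP, ZBTB, ZSCAN or ZKSCAN families. Medians against the mock follow for DICER1 siRNA 1 and 2 and DROSHA siRNA 1 and 2. Under 40% GC they were -0.081, -0.063, -0.062 and 0.012 over all tested genes and -0.079, -0.067, -0.074 and 0.157 over ZNF genes. At 55% or more they were 0.054, 0.038, 0.047 and -0.002 over all tested genes and 0.038, -0.035, 0.062 and 0.028 over ZNF genes. Over all tested genes, DROSHA siRNA 2 thus lay nearest the mock in both classes. The part of GC content, of the matches or of any other shared feature in the result was not tested.

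**Figure D3:**
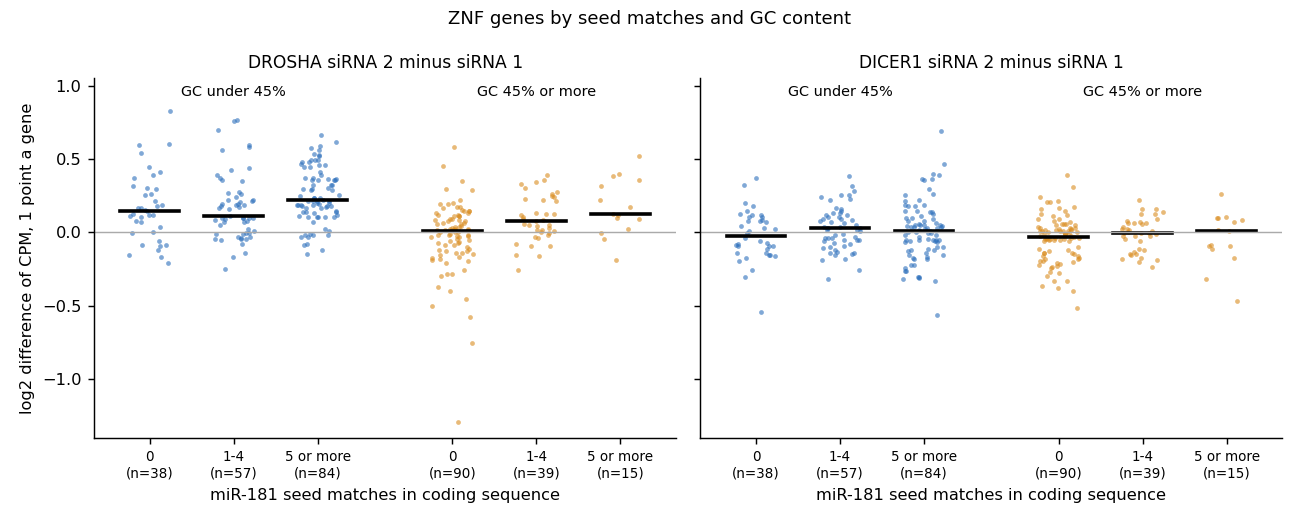
Log2 difference of CPM between siRNA 2 and siRNA 1 for DROSHA (left) and DICER1 (right), 1 point per ZNF gene, split by transcript GC content (blue under 45%, orange 45% or more) and by miR-181 seed matches in the coding sequence (x axis). Bars are medians, which run from 0.010 to 0.217 on the left and from -0.028 to 0.032 on the right.

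Along chromosome 19 the median of DROSHA siRNA 2 minus siRNA 1 was positive in each run of neighbouring ZNF genes with at least 8 members. A run was ended by a gap of more than 1 Mb on GRCh38. The 17 genes from ZNF576 to ZNF180 had a median of 0.254 for DROSHA siRNA 2 minus siRNA 1, with 16 higher in siRNA 2, and the 23 from ZNF146 to ZNF573 had 0.198, with 21 higher. The 24 genes from ZNF175 to ZNF331 stood at 0.169 and the 42 from ZNF628 to ZNF446 at 0.119, with 20 and 34 higher. The run from ZNF557 to ZNF562, with 12 genes, had the smallest median, 0.058, with 9 higher. In the same order, the medians of these runs between the DICER1 libraries were 0.019, 0.035, -0.011, 0.021 and -0.050.

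**Figure D4:**
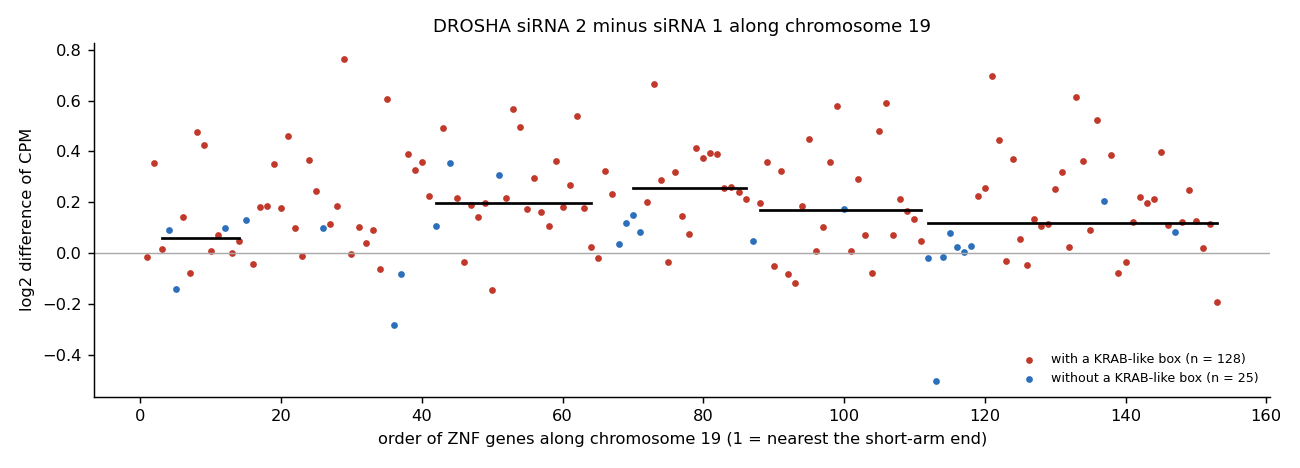
Log2 difference of CPM between DROSHA siRNA 2 and siRNA 1 (y axis) for the 153 ZNF genes of chromosome 19 in their order along it (x axis). Red points have a KRAB-like box, blue points do not, and black lines are the medians of the 5 runs with at least 8 genes, from 0.058 to 0.254.

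In DICER1 siRNA libraries against mock no ZNF gene passed edgeR's quasi-likelihood test at an adjusted p under 0.05, where 0.00817% of all tested genes did, and none passed with DESeq2 or with the edgeR likelihood ratio test. At an unadjusted p under 0.05 there were 5 ZNF genes (1.55%), against 5.46% of all tested genes. The gap between the DROSHA libraries enters these p-values as well. Both DICER1 libraries were above the mock for 110 genes (34.1%, against 36.7% of all tested genes and 36.3% of the 9677 averaging 10 CPM or more) and below it for 120 (37.2%, against 36.4% and 37.8%), with a median log2 fold change of -0.015. The shares above and below the mock lie near those of all genes. The genes with the smallest p were not past the test. ZNF691 stood at 23.8 and 23.5 CPM after DICER1 siRNA, against 17.4 CPM in the mock, a log2 fold change of 0.445 ± 0.145 (SE; edgeR adjusted p = 0.865). ZNF91, which represses SVA retrotransposons, had 13.4 and 11.9 CPM after DICER1 siRNA, against 16.8 CPM in the mock (-0.410 ± 0.165, same adjusted p). Both of its DICER1 libraries were lower than both DROSHA libraries, at 15.4 and 15.8 CPM.

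Others on the lower side in DICER1 libraries were ZNF621 at a log2 fold change of -0.28, ZNF783 at -0.38, ZNF468 at -0.35 and ZNF281, a factor found with MYC, at -0.28. ZNF281 had 50.5 and 50.3 CPM after DICER1 siRNA, against 61.3 CPM in the mock. On the higher side were ZNF385A, a partner of p53, at 0.28, ZNF512B at 0.22, ZNF367 at 0.65 and ZNF865 at 0.26. ZNF385A had 36.0 and 38.9 CPM after DICER1 siRNA, against 30.8 CPM in the mock and 33.2 and 31.0 CPM after DROSHA siRNA.

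In DROSHA siRNA libraries against mock no ZNF gene passed either, by edgeR's quasi-likelihood test, the likelihood ratio test or DESeq2, and again 0.00817% of all tested genes did in the first. An unadjusted p under 0.05 was reached by 3 ZNF genes (0.929%, background 3.69%). Both DROSHA libraries were above the mock for 118 genes (36.5%, against 31.5% of all tested genes and 32.3% of the 9677 averaging 10 CPM or more) and below it for 62 (19.2%, against 32.5% and 31.1%). The median log2 fold change was 0.048, and the DROSHA libraries contributed unequally to it: without siRNA 1 it was 0.101 and without siRNA 2 it was -0.013. ZNF711 stood at 662 and 572 CPM after DROSHA siRNA 1 and 2, 647 and 732 CPM after DICER1 siRNA and 782 CPM in the mock, so all 4 siRNA libraries were below the mock. Its log2 fold change in DROSHA against mock was -0.34 ± 0.11 (SE; edgeR adjusted p = 0.978). ZNF691 was above the mock here too, at 22.9 and 24.4 CPM after DROSHA siRNA (0.441 ± 0.145). The same mock library serves both comparisons, so this is not independent of its DICER1 difference.

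Other genes higher in DROSHA libraries were ZNF276 at a log2 fold change of 0.32, ZNF720 at 0.39, ZNF280B at 0.41 and ZNF530 at 0.53, and lower ones were ZNF621 at -0.24, ZNF248 at -0.34, ZNF614 at -0.24 and ZNF585A at -0.25. ZNF530, a KRAB gene of chromosome 19 with 12 miR-181 matches, had 38.4 CPM with DROSHA siRNA 2 and 26.6 CPM with siRNA 1. It had 25.5, 27.3 and 22.5 CPM in DICER1 siRNA 1, DICER1 siRNA 2 and the mock. Among the lower genes, ZNF248, ZNF614 and ZNF585A held 8, 6 and 3 matches. ZNF585A shares 43.2% of the 50-base words of its coding sequence with ZNF585B, so its counts are uncertain, and the values of 10 ZNF genes with over 25% shared words carry this limit. Without DROSHA siRNA 1, which leaves 1 DROSHA library and takes the spread from the DICER1 pair, 225 genes of the table passed (1.85%) and 5 of them were ZNF genes (1.55% of the 323): ZNF395 at a log2 fold change of -1.30, ZNF207 at -0.78, ZNF711 at -0.45, ZNF367 at 1.0 and ZNF530 at 0.77. These were named because that fit called them, and the lone DROSHA siRNA 2 library is assumed there to vary like the DICER1 libraries.

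**Figure D5:**
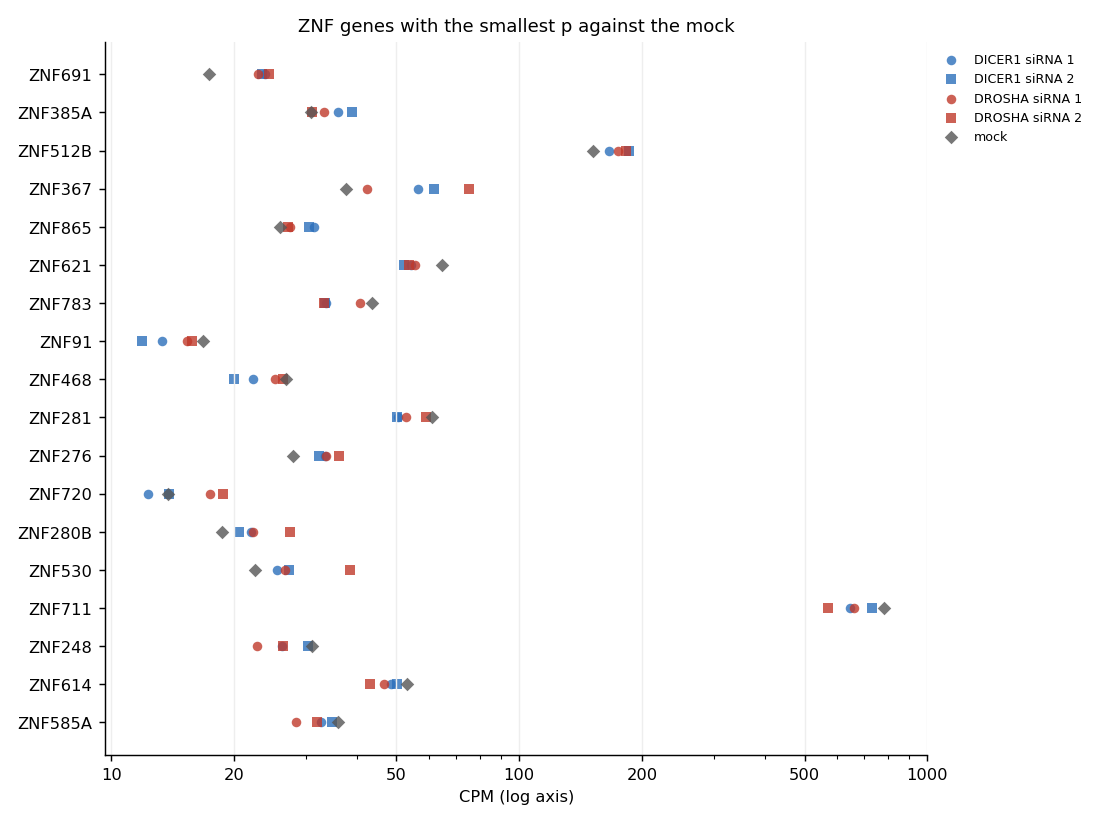
CPM (log axis) in each of the 5 libraries for the ZNF genes with the smallest p in DICER1 or DROSHA libraries against the mock, none of which passed the test. The mock (diamond) of ZNF691 lies at 17.4 CPM, below all 4 siRNA libraries, and that of ZNF711 at 782 CPM, above them.

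Compared directly, DICER1 siRNA libraries had lower values than DROSHA siRNA libraries for more ZNF genes than they had higher ones. Both DICER1 libraries were below both DROSHA libraries for 83 genes (25.7%, against 20% of all tested genes and 21.9% of the 9677 averaging 10 CPM or more) and above both for 30 (9.29%, against 20.9% and 19.8%), at a median log2 fold change of -0.058 against 0.004 for all tested genes. Without DROSHA siRNA 2 this median was 0.007, and without DROSHA siRNA 1 it was -0.121. No ZNF gene passed (0.0163% of all tested genes did), nor did any with DESeq2 or the likelihood ratio test, and 9 had an unadjusted p under 0.05 (2.79%, background 8.34%). Of these 9, 8 were lower in DICER1 libraries (2.48%, background 4.32%).

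ZNF720 had 12.3 and 13.8 CPM after DICER1 siRNA, against 17.5 and 18.7 CPM after DROSHA siRNA, a log2 fold change of -0.47 ± 0.14 (SE; edgeR adjusted p = 0.504), with the mock at 13.8 CPM. ZNF175 had 17.5 and 14.8 CPM after DICER1 siRNA, against 20.6 and 23.6 CPM after DROSHA siRNA, with the mock between them at 20.1 CPM. ZNF675 stood at 12 and 14.7 CPM in DICER1 libraries and 17.2 and 18.4 CPM in DROSHA libraries, with the mock at 13.3 CPM. These 3 genes were picked among those with both DICER1 libraries below both DROSHA libraries. That arrangement held for 25.7% of the ZNF genes and 20% of all tested genes. ZNF697 differed by -0.40. ZNF33A, which like ZNF12 and ZNF33B holds 18 miR-181 matches, differed by -0.23. It had 75.3 and 69.4 CPM in DICER1 libraries and 81.5 and 88.5 CPM in DROSHA libraries. On the higher side in DICER1 libraries were ZNF507 at 0.17, ZNF790 at 0.33, ZNF446 at 0.28, ZNF516 at 0.22 and ZNF385A at 0.22. Of these, ZNF790 holds 9 matches.

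Of the ZNF proteins with known roles in RNA or the ribosome, 7 of 9 listed genes were members. ZNF593 was below the limit and ZNF106 had no row. ZNF598, a ubiquitin ligase that marks collided ribosomes, stood at 173 and 174 CPM in DICER1 libraries, 177 and 182 CPM in DROSHA libraries and 158 CPM in the mock, so the mock was lowest. ZNF346, which binds double-stranded RNA, also had its lowest value in the mock, with 60.7 and 59.0 CPM in DICER1 libraries, 57.6 and 60.3 CPM in DROSHA libraries and 51.9 CPM in the mock. Neither passed in any comparison. ZNF622, a maturation factor of the large ribosomal subunit, had 61.5 CPM with DROSHA siRNA 2 and 41.0 CPM with siRNA 1, against 51.2 and 44.2 CPM in DICER1 libraries and 46.1 CPM in the mock. ZNF638, a cytosine-cluster DNA binding protein, ranged from 152 to 184 CPM and ZNF326, a subunit of the DBIRD complex on elongating RNA polymerase II, from 70.5 to 81.7 CPM.

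Among genes with roles in repeat, imprint and ZNF-gene silencing, 7 of 9 were members, with ZNF93 and ZNF57 below the limit. All 7 were higher with DROSHA siRNA 2 than siRNA 1, as were 72.1% of all ZNF genes and 51.7% of tested genes averaging 10 CPM or more. Their median difference, 0.076, was below the 0.115 of all ZNF genes. ZNF10 (KOX1), whose KRAB box is used in engineered repressors, had 19.5 CPM with DROSHA siRNA 2 and 14.1 CPM with siRNA 1, against 15.8 and 17.5 CPM in DICER1 libraries and 16.3 CPM in the mock. ZNF274, which brings SETDB1 to the 3′ ends of other ZNF genes, stood at 88.0 and 87.5 CPM in DICER1 libraries, 88.9 and 96.8 CPM in DROSHA libraries and 84.0 CPM in the mock. ZNF445, needed for genomic imprinting, lay between 59.8 and 65.4 CPM in all 5 libraries, and ZNF263 between 82.3 and 91.0 CPM. ZNF765 had 19.8 and 18.3 CPM in DICER1 libraries, against 20.8 and 24.1 CPM in DROSHA libraries and 20.9 CPM in the mock. ZNF202, a SCAN and KRAB repressor, had 29.1 and 29.2 CPM in DICER1 libraries, against 33.3 and 33.7 CPM in DROSHA libraries and 32.4 CPM in the mock.

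Activators, promoter and chromatin factors counted 17 members of 18 listed, ZNF423 being below the limit. This group, in which no gene has a KRAB-like box, had a median of -0.041 for DROSHA siRNA 2 minus siRNA 1. Higher with siRNA 2 were 7 genes (41.2%), against 72.1% of ZNF genes and 51.7% of tested genes averaging 10 CPM or more. ZNF143, which binds promoters of small nuclear RNA and coding genes, stood at 30.0 and 32.6 CPM in DICER1 libraries, 34.6 and 34.6 CPM in DROSHA libraries and 32.5 CPM in the mock. ZNF24, a SCAN protein, had 113 CPM with DROSHA siRNA 1, the lowest of its 5 values, and 169 CPM with siRNA 2, with the DICER1 libraries at 159 and 163 CPM and the mock at 158 CPM. ZNF217, an oncogene of breast cancer, had 50.1 and 45 CPM in DICER1 libraries, against 52.6 and 57.1 CPM in DROSHA libraries. ZNF384 was at 89.9 and 88.3 CPM in DICER1 libraries, above the 76.6 and 82.6 CPM of the DROSHA libraries and the 77.4 CPM of the mock. ZNF687 and ZNF592, subunits of one chromatin complex, ranged from 66.6 to 76.3 CPM and from 83.0 to 91.4 CPM. ZNF644, a partner of the methyltransferases EHMT1 and EHMT2, had 115 and 117 CPM in DICER1 libraries, against 126 and 135 CPM in DROSHA libraries and 126 CPM in the mock. ZNF148, ZNF609, ZNF451, ZNF131, ZNF335, ZNF521 and ZNF703 had log2 fold changes between -0.15 and 0.34 in DICER1 against mock and between -0.08 and 0.16 in DROSHA against mock.

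The cofactor list held 34 symbols for the silencing machinery that KRAB zinc fingers recruit and for related chromatin proteins. In it FAM208A and TASOR name the same gene. Of these symbols 31 were tested, and none passed edgeR's quasi-likelihood test in any of the 3 comparisons. At an unadjusted p under 0.05 there was 1 for DICER1 against mock, 0 for DROSHA against mock and 1 for DICER1 against DROSHA, where 5.46%, 3.69% and 8.34% of all tested genes were. Their median for DROSHA siRNA 2 minus siRNA 1 was 0.020, with 18 of 31 (58.1%) higher, against 49.8% of all tested genes and 51.7% of those averaging 10 CPM or more. TRIM28, the scaffold itself, had 1122 and 1059 CPM in DICER1 libraries, 1128 and 1178 CPM in DROSHA libraries and 1154 CPM in the mock. CBX5 (HP1 alpha) had 322 and 292 CPM in DICER1 libraries, against 361 CPM in the mock, the smallest p of the list there (log2 fold change -0.23 ± 0.08, edgeR adjusted p = 0.865), with HDAC2 at -0.185 and RBBP7 at 0.13. In DROSHA against mock the smallest p belonged to UHRF1 at -0.17, TRIM24 at -0.21, MORC2 at -0.15 and HDAC2 at -0.11. UHRF1, which recruits the maintenance DNA methyltransferase, had 168 and 169 CPM in DICER1 libraries, against 146 and 142 CPM in DROSHA libraries, at the smallest p of the list in that comparison (0.226 ± 0.0692, edgeR adjusted p = 0.511), followed by DNMT3B at 0.54, SMARCAD1 at -0.18 and CBX5 at -0.14. DNMT3B, a DNA methyltransferase, had 28.9 CPM with DROSHA siRNA 2 and 53.6 CPM with siRNA 1, against 60.3 and 60.2 CPM in DICER1 libraries and 54.5 CPM in the mock, and MBD2, a reader of methylated DNA, likewise had 26.8 CPM with DROSHA siRNA 2 and 55.9 CPM with siRNA 1.

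In related zinc finger families the same measure is given as a description. The median of DROSHA siRNA 2 minus siRNA 1 was 0.063 in 34 ZBTB genes, 0.014 in 16 ZSCAN and ZKSCAN genes and 0.189 in 15 ZFP genes. It was 0.054 in the 104 tested ZNF rows below the limit, with 55 (52.9%) higher, where low counts make single values less precise. Against the mock, in DROSHA siRNA 1 and 2, medians were 0.036 and 0.052 in ZBTB genes and -0.009 and 0.036 in ZSCAN and ZKSCAN genes. They were -0.11 and -0.011 in ZFP genes and 0.026 and 0.086 in the ZNF rows below the limit.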

How the data were processed

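Poly(A) RNA libraries of HEK293 cells were made with a TruSeq protocol, per the labels. The submitters' processing notes name CASAVA 1.8.2, STAR, HTSeq, edgeR and build hg19, with no roles. The authors deposited raw read counts per gene symbol, with 0 unused columns; whether counting used strand is not stated in those sources, so reads of antisense and overlapping partners may be mixed. A gene was tested if 2 or more libraries had 1 CPM or more (12234 genes). edgeR 4.0.16 in R 4.3.3 was run with TMM scaling and its quasi-likelihood test, with all 5 libraries and group as the only term, so the single mock is assumed to vary like the siRNA pairs (2 residual degrees of freedom). P-values were Benjamini-Hochberg adjusted over all tested genes. SE is the log2 fold change over the square root of F. Log2 differences between libraries used log2 CPM with a prior count of 2. Fold changes are the first-named group over the second.

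Members and gene lists were chosen with earlier results of these data known. Named genes were the 5 higher and 5 lower members with the smallest p per comparison and libraries on 1 side, the 5 largest differences each way between the DROSHA libraries, the 8 highest levels per kilobase, the members of 3 role lists, the 3 rows on each side of 10 CPM, and the 4 cofactor genes with the smallest p, of which 1 is not reported here. TRIM28, MBD2 and called genes outside this rule were named after their values were seen. Transcripts came from GENCODE 29 (GRCh38) and matched all 323 members by symbol or synonym; their coordinates were not mixed with hg19. Fingers were counted as the C2H2 spacing pattern in the translated coding sequence, and KRAB-like boxes there too, since no protein table was used. On simulated counts of 12234 genes with 200 changed, the test called 40.3% of 1.5-fold and 79.1% of 2-fold changes in DICER1 against mock, and 29.9% and 77.6% in DROSHA against mock. The simulated spread followed the trend over expression alone, with no spread particular to a gene. These shares therefore do not hold for genes whose siRNA libraries differ more than that trend. Alternatives were DESeq2 1.42.0, its size factors, column totals, the likelihood ratio test, no filter, limits of 5 and 20 CPM, removal of the GC, length and expression trend, and leaving out each siRNA library.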

Additional observations from a re-analysis of the deposited data

Results flagged for a closer look

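For 6 named ZNF genes both DICER1 siRNA libraries lay on one side of the mock and both DROSHA siRNA libraries on the other, and none passed edgeR's quasi-likelihood test of the difference. ZNF175, ZNF697, ZNF202 and ZNF775 were lower after DICER1 siRNA than after DROSHA siRNA, by log2 fold changes of -0.449, -0.396, -0.199 and -0.315 (adjusted p = 0.523, 0.566, 0.630 and 0.621). ZNF395 and ZNF207 were higher after DICER1 siRNA, by 0.577 and 0.371 (adjusted p = 0.686 and 0.678), where the low values come from DROSHA siRNA 2 alone. With DROSHA siRNA 1 both were nearly level with the mock, ZNF395 at 77.38 against 77.42 CPM and ZNF207 at 346 against 351 CPM. Over all 323 ZNF genes, 27 (8.36%) had both DICER1 libraries below and both DROSHA libraries above the mock, against 4.49% of all tested genes and 5.02% of those averaging 10 CPM or more, and 2 (0.619%, against 5.03% and 4.63%) had the opposite arrangement; the difference in these shares was not tested.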

How the results depend on the processing

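No ZNF gene was called in any of the 3 comparisons under DESeq2, its size factors, the likelihood ratio test, no filter or limits of 5 and 20 CPM. When each siRNA library was left out in turn, the count of called ZNF genes ranged from 0 to 5 in DROSHA against mock and from 0 to 3 in DICER1 against DROSHA, the upper values without DROSHA siRNA 1; the 3 (0.929% of the ZNF genes, where that fit called 427 genes or 3.51% of all tested) were ZNF207, ZNF395 and ZNF678. In DICER1 against mock it stayed at 0. The median log2 fold change of the ZNF genes in DICER1 against mock, -0.015, was 0.004 with column totals and 0.003 with the expression, GC and length trend removed, and ranged from -0.024 to -0.005 without single libraries, so its sign is not settled. For DICER1 siRNA 1 alone it was 0.011 with column totals and 0.008 with the trend removed, and for DICER1 siRNA 2 it was -0.001 with column totals, -0.001 at 5 CPM, -0.008 at 20 CPM and 0.003 with the trend removed; the cause was not tested. That of DROSHA siRNA 1, -0.016, was 0.007 with the trend removed. The difference between the DROSHA libraries stayed between 0.103 and 0.125 under every scaling, limit and trend removal and was 0.110 without the 10 near copies, an alternative chosen after seeing the data. Over all tested genes the likelihood ratio test called 29 genes for DICER1 and 3 for DROSHA relative to mock, and 130 between the knockdowns, where the quasi-likelihood test called 1, 1 and 2. Of 180 recomputed values of named genes, 180 kept their direction. These genes were named only where their libraries lay on 1 side in the comparison. Leaving out a library could therefore hardly turn the direction, and the count says little about robustness. Without DROSHA siRNA 1, ZNF530 stood at a log2 fold change of 0.768 and ZNF711 at -0.453 in DROSHA against mock. The siRNA numbers do not pair the samples: same-numbered libraries had a correlation of 0.0243, and with the siRNA number as a replicate block 0 ZNF genes were called in DICER1 against DROSHA, at a median of -0.062. Counts of 65 reads or more per gene and library still leave counting SEs of up to 0.231 on the log2 scale for a difference between DROSHA libraries.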
